A study of Homo sapiens with 12 samples.

Results

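Transcripts of the isocitrate dehydrogenases and of their neighbours in the citrate cycle were followed in 2 liver cancer cell lines after knockdown of the lncRNA FASRL. The 9 genes named were IDH1, IDH2, IDH3A, IDH3B, IDH3G, ACO1, CS, FH and MDH1. They were chosen by function and by their measured values in these same libraries, in particular the loss of IDH1 after knockdown and its difference between the lines. The knockdown differences of these genes and their differences between the lines are therefore a description, with no test. Of the 9 genes, 7 had a row among the 8842 genes listed, and all 7 passed the filter on low values, which asked for 1 or more in no fewer than 3 libraries of a comparison. By gene ID they are IDH1 (3417), IDH2 (3418), IDH3A (3419), IDH3B (3420), ACO1 (48), CS (1431) and MDH1 (4190). IDH3G and FH had no row and were not analysed here.

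HepG2 and LM3 are established human lines, both labelled as hepatocellular carcinoma cells. Each was transfected with siRNA against FASRL (siFASRL) or with control siRNA (siNC), and RNA was taken 48 h later, with 3 libraries in each of the 4 groups. Which FASRL siRNA went into the libraries was not stated, and FASRL itself was not analysed here, so the knockdown could not be checked from these values. The study's methods say in general that work with cell lines was repeated, but not that the 3 libraries of a group came from separate cultures, so p-values measure the spread between these libraries, which may be technical.

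Levels are the deposited normalized RSEM values. Comparisons of genes within a library take these values as scaled for transcript length, which was not tested. Whether they are FPKM or TPM was not stated, and the sequencing depth behind them is unknown. Within a group, libraries correlated at r = 0.9954 to 0.9989 across genes, which are not independent replicates. The rule by which the 8842 genes were listed was not stated either. In HepG2, 5 of 6367 genes with a mean of at least 5 (0.0785%) had a siFASRL mean that differed from the siNC mean by a log2 ratio between -0.2 and -0.04, against 578 of 5937 (9.74%) in LM3. Summed over the listed genes, values came to 333193 to 338379 in HepG2 siNC and 347211 to 355094 in HepG2 siFASRL libraries. In LM3 they came to 316534 to 321859 under siNC and 346884 to 348573 under siFASRL. Every siFASRL library thus had a higher sum than every siNC library of its line. Percentages of genes called below are shares of the listed genes, not of the transcriptome.

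The hepatocyte and liver cancer markers separated the lines. All 9 markers on the list were measured, and their summed level was 3908 ± 206 (SD, n = 3) in HepG2 siNC libraries but 16.5 ± 1.63 in LM3 siNC libraries. SERPINA1 was the most abundant of them in HepG2 siNC, at 1393 ± 71.3, and HNF4A in LM3 siNC, at 14.3 ± 0.0954. In LM3, 7 of the 9 markers had a mean under 1 in siNC libraries and 8 of 9 in siFASRL libraries. ALB, which encodes serum albumin, had a mean of 815 ± 31.7 in HepG2 siNC and of 0.36 ± 0.28 in LM3 siNC. The defining secretory products of hepatocytes were thus at or near 0 in the LM3 libraries.

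In the citrate cycle, citrate synthase (CS) joins acetyl-CoA to oxaloacetate, aconitase turns citrate into isocitrate, and isocitrate dehydrogenases convert isocitrate to 2-oxoglutarate. The step inside the mitochondrial cycle is catalysed by the NAD-linked enzyme, a complex of the catalytic subunit IDH3A with the subunits IDH3B and IDH3G. IDH1 in the cytosol and peroxisomes and IDH2 in mitochondria are separate, NADP-linked enzymes that make NADPH and can also run in reverse, which turns 2-oxoglutarate into isocitrate for citrate and lipid synthesis. ACO1 is the cytosolic aconitase, which without its iron-sulfur cluster binds iron-responsive elements of mRNAs, and MDH1 is the cytosolic malate dehydrogenase of the malate-aspartate shuttle.

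The start regions of 3 of these genes are shown because IDH1 and CS had lower levels after FASRL knockdown in both lines whereas IDH3A did not. The sequences are RefSeq promoter windows of GRCh38.p14, which hold 250 bases before and 50 after an annotated start, written 5′ to 3′ on the strand of the gene. Capitals mark the GC box GGGCGG or its reverse complement CCGCCC.
IDH1, chr2:208255022-208255321, minus strand: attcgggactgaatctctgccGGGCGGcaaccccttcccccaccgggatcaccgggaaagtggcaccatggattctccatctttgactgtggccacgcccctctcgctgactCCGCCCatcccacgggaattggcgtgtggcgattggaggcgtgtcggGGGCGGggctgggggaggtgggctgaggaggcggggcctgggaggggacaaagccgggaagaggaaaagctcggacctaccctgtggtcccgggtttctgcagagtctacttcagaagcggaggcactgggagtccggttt
CS, chr12:56300281-56300580, minus strand: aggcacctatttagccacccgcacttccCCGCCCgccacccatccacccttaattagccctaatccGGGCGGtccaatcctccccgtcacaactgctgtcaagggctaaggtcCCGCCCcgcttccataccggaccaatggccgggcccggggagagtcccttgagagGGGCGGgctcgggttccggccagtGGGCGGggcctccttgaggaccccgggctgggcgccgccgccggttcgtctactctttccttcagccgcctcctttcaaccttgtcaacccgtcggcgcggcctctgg
IDH3A, chr15:78149112-78149411, plus strand: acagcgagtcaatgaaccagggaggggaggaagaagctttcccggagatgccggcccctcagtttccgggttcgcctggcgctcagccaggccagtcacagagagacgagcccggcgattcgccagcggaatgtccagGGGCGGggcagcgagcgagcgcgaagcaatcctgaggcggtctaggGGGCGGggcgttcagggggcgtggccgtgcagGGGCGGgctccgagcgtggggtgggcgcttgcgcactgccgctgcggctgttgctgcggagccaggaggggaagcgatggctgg

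The GC box, which was searched for after the values had been seen, occurred 3 times in the IDH1 window, 5 times in the CS window and 3 times in the IDH3A window. The ACO1 window held 6, and those of IDH3B and MDH1 held 0. It was present in 44.9% of the 34796 promoter windows of the same length. Neither of the other motifs searched on both strands, the E box CACGTG and the sterol element TCACCCCAC, had a match in these windows or in those of IDH3B, ACO1 and MDH1. They were present in 7.20% and 0.422% of all windows. IDH1 has a further annotated start inside the gene, whose window held 2 GC boxes and neither other motif. The only IDH2 window also lies inside the gene, away from its 5′ end, and is not compared with the others. A missing match says only that these letters were not in the window.

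IDH1 had lower levels after FASRL knockdown in both lines. In HepG2, the IDH1 value was 122, 109 and 118 in the 3 siNC libraries and 63.2, 64.9 and 69.0 in the 3 siFASRL libraries. In LM3, it was 79.4, 76.1 and 70.1 in siNC libraries and 16.9, 19.4 and 18.8 in siFASRL libraries. The groups did not overlap in either line, and the LM3 siFASRL libraries were the lowest of all. The IDH1 mean was 116 ± 6.73 under siNC and 65.7 ± 2.97 under siFASRL in HepG2, so that 56.6% remained. In LM3 it was 75.2 ± 4.72 and 18.4 ± 1.28, with 24.4% remaining (SD, n = 3 throughout).

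IDH2, the mitochondrial NADP-linked form, had the same direction. Its values in HepG2 were 53.9, 58.9 and 52.7 under siNC and 27.4, 26.8 and 24.9 under siFASRL. In LM3 they were 16.0, 19.1 and 17.8 under siNC and 4.56, 5.67 and 5.22 under siFASRL. Again the groups did not overlap in either line. Of the IDH2 mean, 47.8% remained in HepG2 (26.4 ± 1.30 against 55.2 ± 3.28). In LM3 29.2% remained (5.15 ± 0.558 against 17.7 ± 1.57).

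On the log2(value + 1) scale, which understates the change of low values, the siFASRL minus siNC difference of IDH1 was -0.81 (SE 0.06) in HepG2 and -1.98 (SE 0.07) in LM3. The LM3 effect minus the HepG2 effect was -1.17 (SE 0.10) for IDH1. For IDH2 the differences were -1.04 (SE 0.06) in HepG2 and -1.60 (SE 0.09) in LM3, and their difference was -0.57 (SE 0.11). Both NADP-linked forms thus had the larger log2 decrease in LM3, and IDH1 showed the wider gap between the lines. Under quantile normalization the line difference of IDH2 shrank to -0.20 and that of IDH1 to -0.98.

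**Figure D1:**
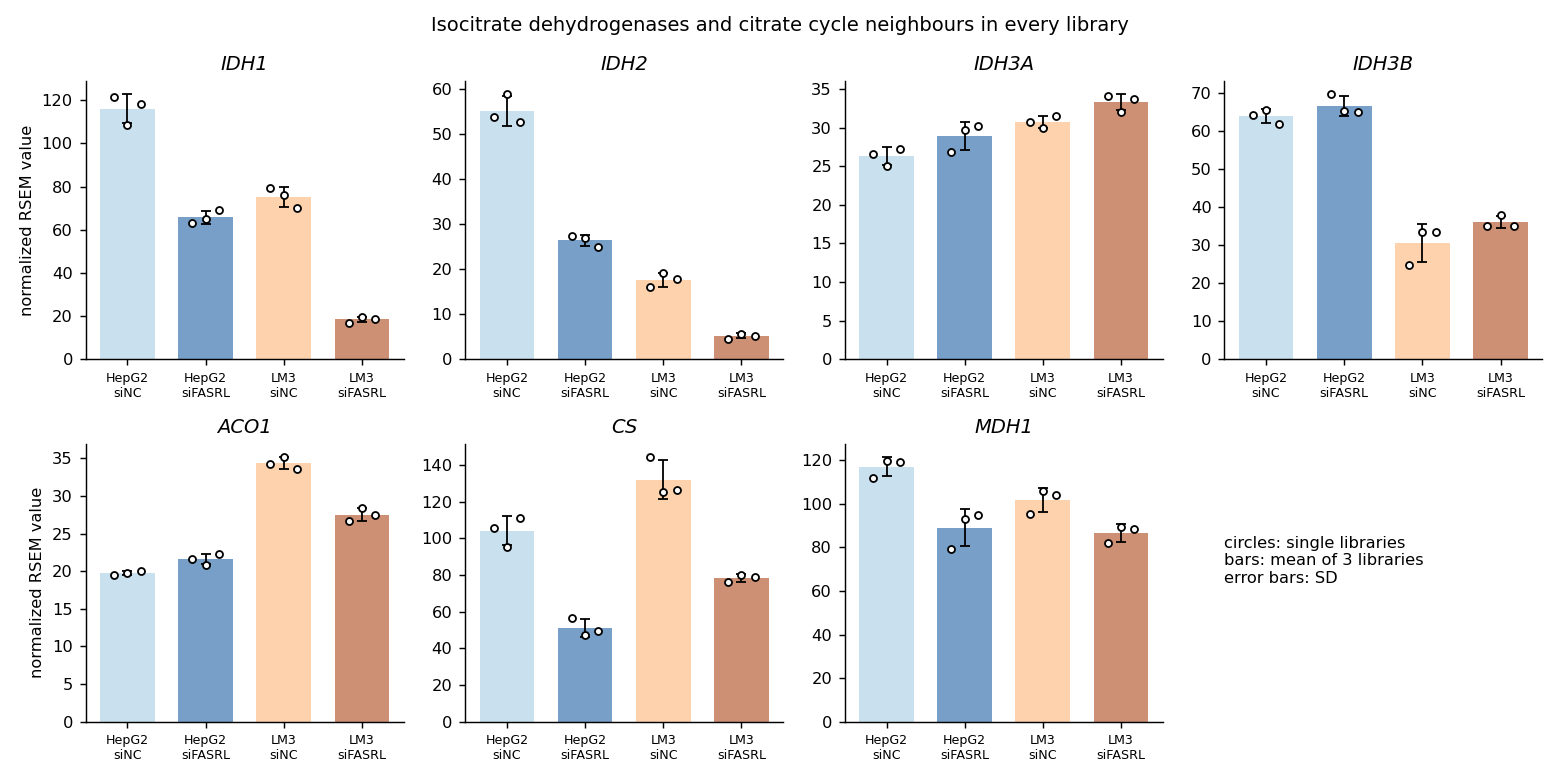
Normalized RSEM values of the 7 listed genes in each of the 12 libraries; circles are libraries, bars the means of 3 libraries and error bars the SD. IDH1, IDH2, CS and MDH1 sit lower under siFASRL in both lines, while ACO1 is higher in HepG2 (21.6 against 19.8) and lower in LM3 (27.5 against 34.3).

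The NAD-linked subunits had no such decrease, although the small HepG2 difference of IDH3B turned negative under quantile normalization. IDH3A, the catalytic subunit, had values of 26.6, 25.1 and 27.3 in HepG2 siNC libraries and 26.8, 29.7 and 30.2 in HepG2 siFASRL libraries, so that the groups overlapped. In LM3 its values were 30.8, 30.0 and 31.5 under siNC and 34.1, 32.1 and 33.7 under siFASRL, all higher than in the siNC libraries. Relative to control siRNA, the IDH3A mean stood at 110% in HepG2 and at 108% in LM3. The log2 differences were 0.13 (SE 0.06) in HepG2 and 0.11 (SE 0.05) in LM3. Their size depended on scaling, at 0.06 in both lines under quantile normalization and at 0.16 in HepG2 and 0.21 in LM3 with median-of-ratios scaling.

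IDH3B had values of 64.2, 65.5 and 61.9 in HepG2 siNC libraries and 69.7, 65.2 and 65.1 in HepG2 siFASRL libraries. These groups overlapped, and the log2 difference of 0.06 (SE 0.06) turned to -0.10 under quantile normalization. In LM3 the IDH3B values were 24.9, 33.3 and 33.4 under siNC and 35.1, 38.0 and 35.1 under siFASRL. They did not overlap, but siNC replicate 1 stood well below the other siNC libraries, and without it the LM3 log2 difference of IDH3B was 0.11 in place of 0.24 (SE 0.11).

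CS, the enzyme that opens the cycle, had lower levels after knockdown in both lines. Its values were 106, 95.5 and 111 in HepG2 siNC libraries and 56.6, 47.1 and 49.4 in HepG2 siFASRL libraries. In LM3 they were 144, 125 and 127 under siNC and 76.2, 80.1 and 78.8 under siFASRL. The groups did not overlap, and 49.0% of the CS mean remained in HepG2, against 59.3% in LM3. The log2 differences were -1.02 (SE 0.08) in HepG2 and -0.74 (SE 0.07) in LM3, so that CS, unlike IDH1 and IDH2, had the larger decrease in HepG2.

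ACO1 had opposite directions in the lines. The cytosolic aconitase had values of 19.6, 19.8 and 20.0 in HepG2 siNC libraries and 21.7, 20.9 and 22.3 in HepG2 siFASRL libraries, every siFASRL library being higher. In LM3 its values were 34.2, 35.2 and 33.6 under siNC and 26.7, 28.4 and 27.5 under siFASRL, every siFASRL library being lower. Relative to control siRNA, its mean stood at 109% in HepG2 and at 80.1% in LM3. The LM3 effect minus the HepG2 effect was -0.43 (SE 0.06) and was not tested.

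MDH1 ranged from 112 to 120 in HepG2 siNC libraries and from 79.3 to 94.7 in HepG2 siFASRL libraries. In LM3 it ranged from 95.2 to 106 under siNC and from 82.1 to 89.2 under siFASRL. The malate dehydrogenase of the cytosol was therefore lower after knockdown in both lines without overlap, with 76.1% of its mean remaining in HepG2 and 85.3% in LM3. Its log2 differences were -0.39 (SE 0.08) and -0.23 (SE 0.06). The LM3 difference of MDH1 was -0.36 under quantile normalization and -0.13 with median-of-ratios scaling.

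Over the 7 genes, 4 were lower without overlap in HepG2, where 44.2% of 8144 listed genes were, and 1 was higher, where 45.4% were. In LM3, 5 were lower without overlap, where 44.6% of 7483 listed genes were, and 2 were higher, where 35.6% were. These genes were chosen with the knockdown contrasts known, so nothing is read from the counts. The median log2 difference of the 7 genes was -0.39 in HepG2 and -0.31 in LM3, beside 0.10 and -0.06 over all genes tested. In bulk libraries, fewer cells that express a gene and less of its RNA per cell cannot be told apart.

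Cell type markers also differed between siFASRL and siNC libraries. The summed level of the 9 hepatocyte and liver cancer markers was 1790 ± 46.3 in HepG2 siFASRL libraries against 3908 ± 206 under siNC, and 7.06 ± 0.743 in LM3 siFASRL libraries against 16.5 ± 1.63. All 9 were called lower in HepG2, where 44.3% of 8144 genes were. Of them only HNF4A passed the filter in LM3, where it was called lower, as were 43.5% of 7483 genes. Of 6 fibroblast markers 5 were listed, with a summed level of 71.3 ± 0.854 in HepG2 siNC, 33.7 ± 1.55 in HepG2 siFASRL, 14.2 ± 0.985 in LM3 siNC and 5.27 ± 0.585 in LM3 siFASRL. COL3A1, at 31.4 ± 1.05, was the most abundant of these in HepG2 siNC, COL1A1 was so in the other groups, and DCN was near 0 in LM3, at 0 in all 3 siFASRL libraries.

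The 3 listed of 4 epithelial markers had a summed level of 734 ± 35.2 in HepG2 siNC, 777 ± 21.8 in HepG2 siFASRL, 946 ± 76.2 in LM3 siNC and 760 ± 27.5 in LM3 siFASRL, most of it KRT18. KRT18 was not called in HepG2 (log2 difference 0.13, adjusted p = 0.0657, limma). EPCAM fell there from 31.5 ± 1.60 to 15.3 ± 0.239 (adjusted p = 3.51e-07, limma) and CDH1 from 7.69 ± 0.513 to 1.99 ± 0.161 (-1.54, adjusted p = 7.97e-08), each in 3 of 3 libraries. In LM3 EPCAM (-0.39, adjusted p = 0.00108, limma) and KRT18 (-0.31, adjusted p = 0.00294) were called lower. The only listed endothelial marker of 4 was VWF, with a mean of at most 0.27 in any group. CD68 was the only listed immune marker of 4, at 41.1 ± 3.98 and 44.9 ± 8.23 in HepG2 siNC and siFASRL libraries and at 14.9 ± 1.76 and 17.5 ± 0.201 in those of LM3. The part of these marker changes in the IDH1, IDH2, CS and MDH1 results was not tested.

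The shares of the isocitrate dehydrogenase transcripts differed accordingly. The summed level of IDH1, IDH2, IDH3A and IDH3B was 261 ± 4.27 in HepG2 siNC and 188 ± 1.37 in HepG2 siFASRL libraries. In LM3 it was 154 ± 3.92 under siNC and 92.9 ± 2.24 under siFASRL. IDH1 and IDH2 together made up 65.5% ± 0.519 of this sum in HepG2 siNC, 49.1% ± 0.601 in HepG2 siFASRL, 60.2% ± 2.81 in LM3 siNC and 25.3% ± 1.41 in LM3 siFASRL libraries. In LM3 siFASRL libraries about as much of the sum was IDH3A (35.9% ± 1.96) as IDH3B (38.8% ± 1.06), with 19.8% ± 0.952 from IDH1 and 5.54% ± 0.471 from IDH2. IDH3G is missing from the sum, so the shares refer to the 4 listed genes.

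**Figure D2:**
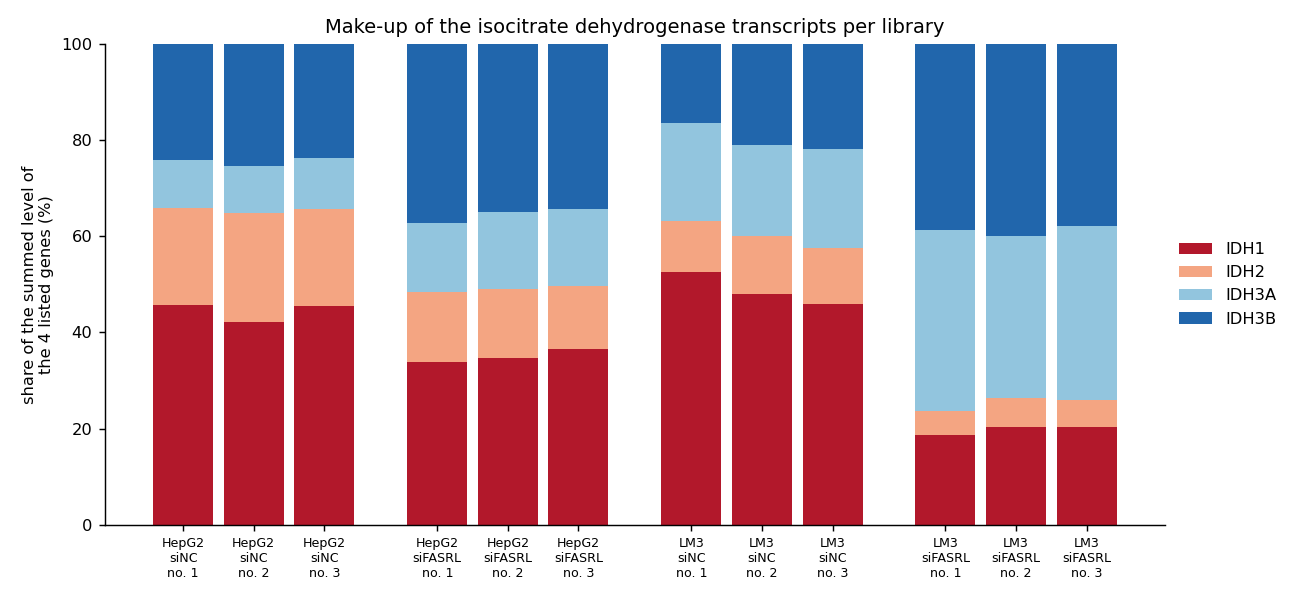
Share of each gene, in percent, in the summed normalized RSEM level of IDH1, IDH2, IDH3A and IDH3B in each of the 12 libraries, grouped by line and siRNA. IDH1 and IDH2 together take 57.5% to 65.9% of the sum in the siNC libraries, 48.4% to 49.6% in HepG2 siFASRL and 23.7% to 26.3% in LM3 siFASRL libraries.

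The cytosolic form was compared with each mitochondrial form within a library, where any scaling of the library cancels. The ratio of IDH1 to IDH2 in HepG2 was 2.26, 1.84 and 2.24 under siNC and 2.31, 2.42 and 2.77 under siFASRL. In LM3 it was 4.96, 3.98 and 3.93 under siNC and 3.71, 3.41 and 3.60 under siFASRL. The means were 2.11 ± 0.234 and 2.50 ± 0.241 in HepG2 and 4.29 ± 0.582 and 3.57 ± 0.149 in LM3. The ratio was thus higher after knockdown in HepG2 and lower in LM3, in both cases with a narrow gap between the groups.

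The ratio of IDH1 to IDH3A was lower after knockdown in both lines. It was 4.57, 4.33 and 4.32 in HepG2 siNC libraries and 2.36, 2.18 and 2.28 in HepG2 siFASRL libraries. In LM3 it was 2.58, 2.53 and 2.22 under siNC and 0.496, 0.603 and 0.557 under siFASRL. IDH1 exceeded the NAD-linked catalytic subunit in the 9 other libraries and was below it in all 3 LM3 siFASRL libraries. The ratio of IDH2 to IDH3A went from 2.10 ± 0.22 to 0.916 ± 0.0988 in HepG2 and from 0.574 ± 0.0595 to 0.155 ± 0.0214 in LM3. By contrast, the ratio of IDH3B to IDH3A was 2.43 ± 0.173 and 2.31 ± 0.244 in HepG2 and 0.992 ± 0.163 and 1.08 ± 0.0852 in LM3, under siNC and siFASRL, with overlapping groups in both lines.

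**Figure D3:**
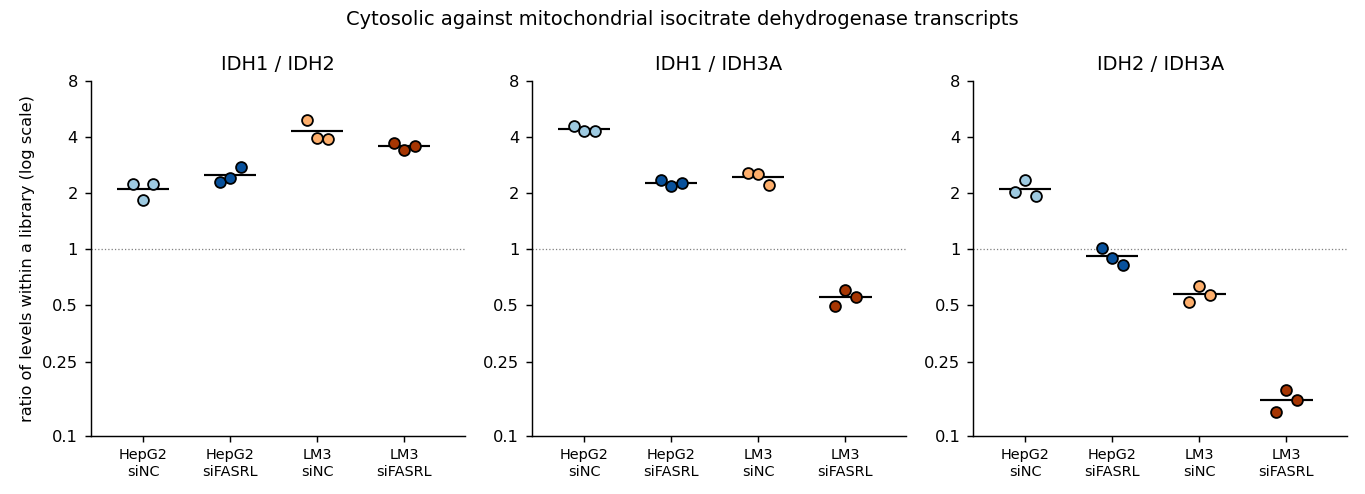
Ratios of normalized RSEM levels within each library on a log axis, for IDH1 to IDH2, IDH1 to IDH3A and IDH2 to IDH3A; points are the 3 libraries of a group and lines their means. IDH1 to IDH3A drops from a mean of 2.45 to 0.552 in LM3, below the dotted line at 1, and from 4.41 to 2.27 in HepG2.

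The order of the 7 genes by mean level differed between groups. In HepG2 siNC libraries MDH1, IDH1 and CS came first, each overlapping in range with the one above it, followed by IDH3B, IDH2, IDH3A and ACO1, each apart from the next. In LM3 siNC libraries the order was CS, MDH1, IDH1, ACO1, IDH3A, IDH3B and IDH2, with only IDH3A and IDH3B overlapping. After knockdown IDH1 had rank 3 in HepG2, overlapping with IDH3B, and rank 6 in LM3, above IDH2 alone. MDH1 was first in both lines after knockdown.

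The levels of the 2 lines under control siRNA are also a description, since the line difference of IDH1 entered the choice of these genes. IDH1 was lower in LM3, where its siNC mean was 64.8% of that of HepG2 (log2 difference -0.62, SE 0.07). IDH2 stood at 32.0% of its HepG2 mean (log2 difference -1.59, SE 0.08) and IDH3B at 47.8% (-1.05, SE 0.11). MDH1 was lower by a small margin, at 86.8% (-0.20, SE 0.06).

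The other 3 genes were higher in LM3. ACO1 was at 173% of its HepG2 mean (log2 difference 0.76, SE 0.05). CS was at 127% (0.34, SE 0.08) and IDH3A at 117% (0.22, SE 0.06). For each of the 7 genes the 3 LM3 siNC libraries lay apart from the 3 HepG2 siNC libraries, 4 genes lower and 3 higher, where 41.4% and 40.9% of 8176 listed genes were. Nothing is read from these counts. Quantile normalization moved the median difference of all genes by 0.14, and under it the differences were -0.70 for IDH1, -1.69 for IDH2, -1.14 for IDH3B, -0.26 for MDH1, 0.80 for ACO1, 0.29 for CS and 0.21 for IDH3A.

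**Figure D4:**
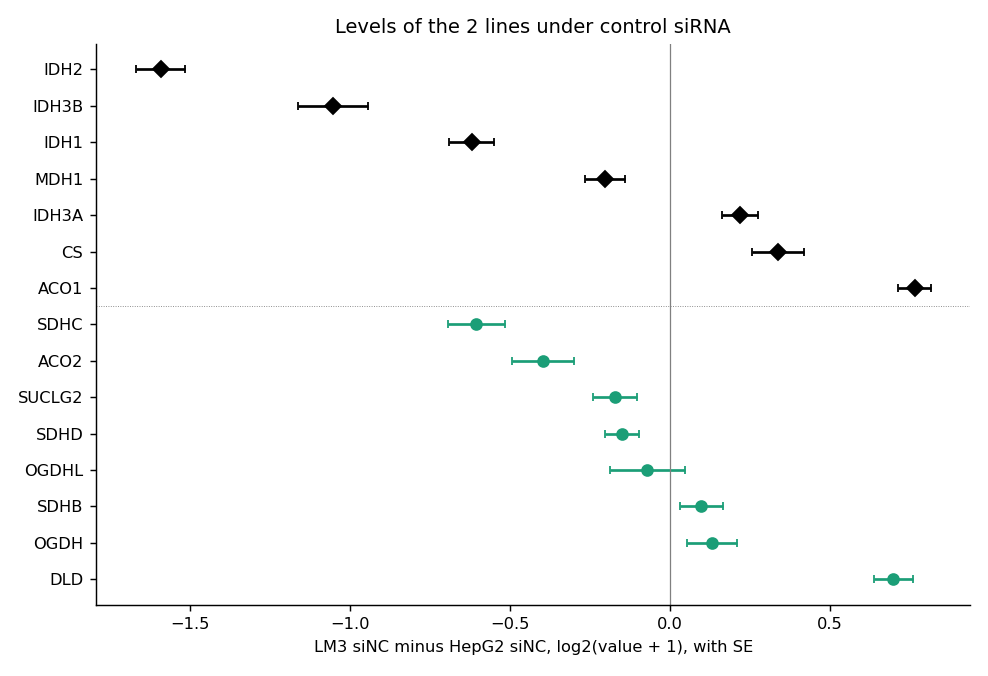
LM3 siNC minus HepG2 siNC difference on the log2(value + 1) scale, with bars of 1 SE, for the 7 genes (diamonds) and the other listed citrate cycle enzymes (circles), from 3 libraries in each line. IDH2 lies farthest to the left, at -1.59, and ACO1 farthest to the right, at 0.76.

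The gene lists too were chosen with earlier results of these data known, so the adjusted p-values of their genes are not independent tests. In every knockdown difference given below for a gene of the lists, unless stated otherwise, the 3 siFASRL libraries lay apart from the 3 siNC libraries in the direction stated. The remaining citrate cycle enzymes were taken from a list of 13, of which 8 were listed and 7 could be tested for the knockdown. In HepG2, 4 were called lower and 3 higher, while LM3 had 4 called lower, 1 called higher and 2 that did not pass. In HepG2, 44.3% of all genes tested were called lower and 44.8% higher, and in LM3 43.5% and 33.9%. The larger number of lower calls in LM3, 3254 against 2536 higher, turned to 2599 against 2807 under quantile normalization and to 2850 against 3059 under median-of-ratios scaling.

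OGDH, the first subunit of the 2-oxoglutarate dehydrogenase complex, acts on the product of isocitrate dehydrogenase. Its level fell from 87.7 ± 6.60 to 39.0 ± 0.444 in HepG2 (log2 difference -1.15, adjusted p = 3.32e-07, limma) and from 96.1 ± 6.99 to 33.2 ± 0.813 in LM3 (-1.50, adjusted p = 4.19e-07). DLD, the dihydrolipoamide dehydrogenase shared by that complex and pyruvate dehydrogenase, fell from 26.8 ± 0.592 to 12.1 ± 0.704 in HepG2 (-1.08, adjusted p = 2.61e-07, limma) and from 44.1 ± 2.71 to 23.1 ± 1.21 in LM3 (-0.90, adjusted p = 4.38e-06). Differences of at least 1 on the log2 scale were reached by OGDH and DLD in HepG2, where 6.79% of all genes were called lower and 3.61% higher by that much. In LM3 OGDH alone reached it, with 6.20% and 1.42% of all genes called lower and higher by at least 1.

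The subunits of succinate dehydrogenase moved in different directions. SDHB, its iron-sulfur subunit, rose from 56.0 ± 3.26 to 86.2 ± 7.37 in HepG2 (log2 difference 0.61, adjusted p = 4.18e-05, limma). In LM3 its difference was 0.18 (adjusted p = 0.017, limma) and did not pass without siFASRL replicate 2 or 3 or siNC replicate 3, where it was 0.17, 0.17 and 0.16, or under quantile normalization, where it was 0.08. SDHD, a membrane anchor, fell in HepG2 from 52.5 ± 1.12 to 38.7 ± 3.45 (-0.44, adjusted p = 0.000248, limma), and SDHC, the other anchor, fell in LM3 from 27.5 ± 2.77 to 18.1 ± 0.75 (-0.57, adjusted p = 0.000136). Each was called lower in the other line too, SDHC in HepG2 (-0.42, adjusted p = 0.000295, limma) and SDHD in LM3 (-0.15, adjusted p = 0.0474). The LM3 call of SDHD was lost under 8 alternatives, among them median-of-ratios scaling (-0.05). SUCLG2, the GTP-forming subunit of succinyl-CoA ligase, rose in HepG2 from 23.3 ± 0.986 to 30.6 ± 0.779 (0.38, adjusted p = 0.000145, limma). Under control siRNA, 4 of the 8 tested were lower in LM3 and 1 was higher, beside 40.6% and 40.4% of all genes. The 4 include SUCLG2 (-0.17, adjusted p = 0.0448, limma). Its call was lost under several alternatives, among them median-of-ratios scaling and the replicate block (-0.17 in both). DLD was the one higher in LM3 (0.70, adjusted p = 1.05e-05, limma), and SDHC was lower (-0.61, adjusted p = 0.000264).

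**Figure D5:**
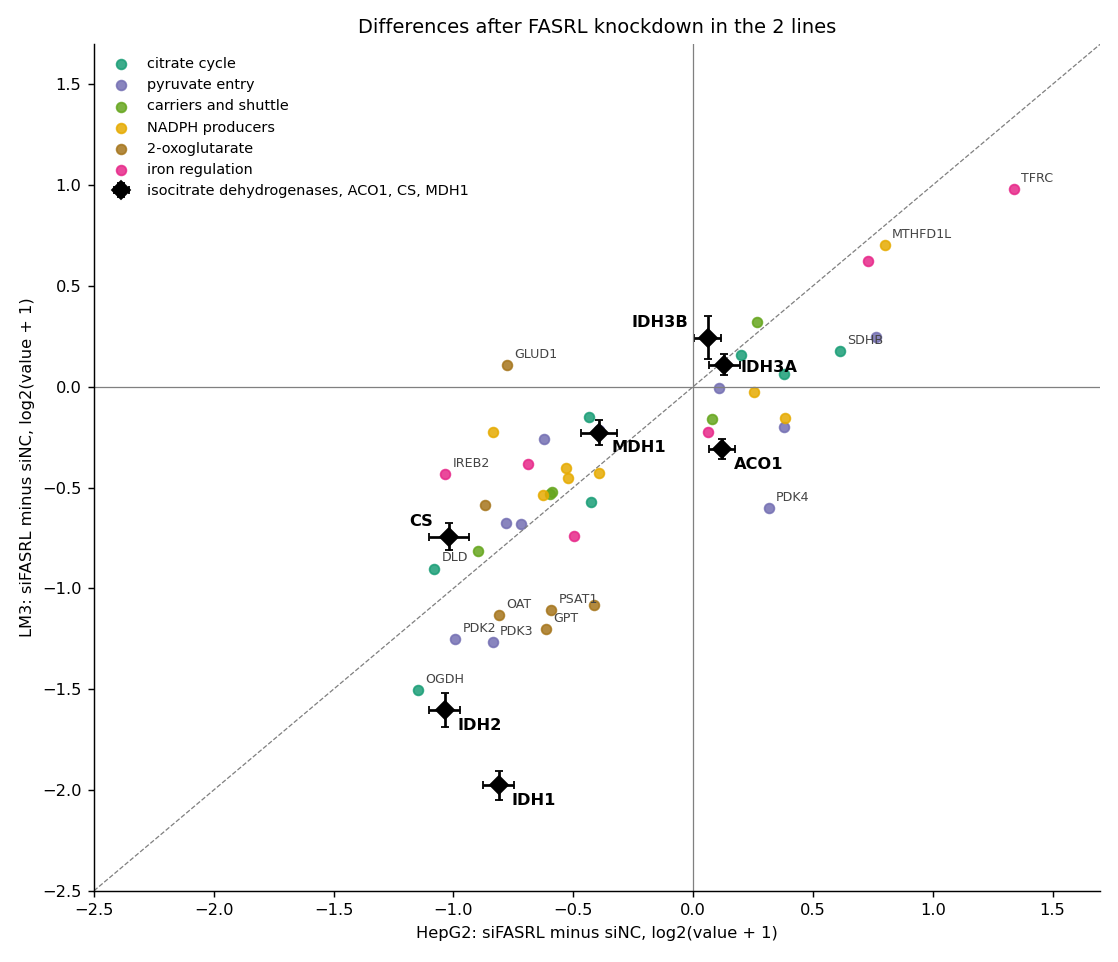
siFASRL minus siNC difference on the log2(value + 1) scale in HepG2 (horizontal) and LM3 (vertical) for the 7 genes (diamonds, bars of 1 SE) and for genes of the 6 pathway lists tested in both lines (circles), with 3 libraries a group; the dashed line marks equal differences. IDH1 (-0.81 and -1.98) and IDH2 (-1.04 and -1.60) lie below the dashed line, CS (-1.02 and -0.74) above it.

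Genes around NADPH supply were read from a list of 13, of which 10 were tested in HepG2 and 9 in LM3. The list includes NAD kinases and folate enzymes, so its counts are not a reading of NADPH formation. In HepG2 7 were called lower and 3 higher (44.3% and 44.8% of all genes), and in LM3 7 and 1 (43.5% and 33.9%). The median log2 difference was -0.52 in HepG2 and -0.40 in LM3. The HepG2 count of lower calls and the HepG2 median include ALDH1L1, at 1.77 ± 0.0451 under siNC and 0.193 ± 0.0808 under siFASRL. ALDH1L1 passed the filter there through the siNC libraries alone, so nothing is read from its call.

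PGD, an NADPH-forming enzyme of the pentose phosphate pathway, fell in LM3 from 45.9 ± 1.46 to 33.2 ± 0.701 (-0.45, adjusted p = 5.11e-05, limma) and was called lower in HepG2 too (-0.52, adjusted p = 2.99e-05). NADK2, the mitochondrial NAD kinase, fell in HepG2 from 18.4 ± 0.786 to 9.88 ± 0.465 (-0.84, adjusted p = 1.21e-06, limma). NADK2 was also called lower in LM3 (-0.22, adjusted p = 0.0101, limma), a call lost under quantile normalization and with median-of-ratios scaling (-0.13 in both). MTHFD1L, a mitochondrial enzyme of folate metabolism, rose in both lines, from 24.9 ± 1.51 to 44.1 ± 2.70 in HepG2 (0.80, adjusted p = 3.72e-06, limma) and from 28.9 ± 2.96 to 47.5 ± 1.18 in LM3 (0.70, adjusted p = 4.09e-05). MTHFD2, of the same folate pathway, fell in LM3 from 64.8 ± 0.775 to 44.4 ± 3.12 (-0.54, adjusted p = 5.54e-05, limma) and was called lower in HepG2 too (-0.62, adjusted p = 9.48e-06). ME1, the cytosolic malic enzyme, rose in HepG2 from 11.4 ± 0.293 to 15.3 ± 1.32 (0.39, adjusted p = 0.000474, limma), and its effect was lower in LM3 (-0.54 for the difference of the effects, adjusted p = 0.000182). In LM3 ME1 was called lower (-0.16, adjusted p = 0.0222, limma), and this call was lost under quantile normalization (-0.09), with median-of-ratios scaling (-0.06) and without any 1 of the siFASRL libraries (-0.15, -0.16 or -0.16).

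Enzymes that make or use 2-oxoglutarate or 2-hydroxyglutarate formed a list of 13, with 8 tested in HepG2 and 7 in LM3. In HepG2, 6 were called lower and 2 higher (44.3% and 44.8% of all genes). The 6 include GPT, at 1.19 ± 0.116 under siNC and 0.433 ± 0.0874 under siFASRL. GPT passed the filter in HepG2 through the siNC libraries alone, so nothing is read from that call. In LM3 6 were lower, where 43.5% of all genes were, and 1 did not pass. Of those in LM3, 4 were lower by at least 1 on the log2 scale, where 6.20% of all genes were. Under quantile normalization 2 of these 4, GPT (-0.70) and GPT2 (-0.61), were not. OAT, ornithine aminotransferase, fell from 24.5 ± 0.552 to 13.6 ± 0.58 in HepG2 (-0.81, adjusted p = 1e-06, limma) and from 28.5 ± 0.421 to 12.5 ± 1.17 in LM3 (-1.13, adjusted p = 2.02e-06). PSAT1, the aminotransferase of serine synthesis, fell in LM3 from 46.5 ± 2.31 to 21.1 ± 0.932 (-1.11, adjusted p = 1.14e-06, limma) and was called lower in HepG2 too (-0.59, adjusted p = 6.85e-06). D2HGDH, which oxidises D-2-hydroxyglutarate back to 2-oxoglutarate, fell in HepG2 from 12.2 ± 1.13 to 6.22 ± 0.816 (-0.87, adjusted p = 1.55e-05, limma) and was called lower in LM3 too (-0.59, adjusted p = 0.000332). The LM3 difference of D2HGDH was -0.31 under quantile normalization and -0.69 with a pseudocount of 0.1.

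GLUD1, mitochondrial glutamate dehydrogenase, was line-dependent. It fell from 84.4 ± 1.55 to 48.9 ± 0.812 in HepG2 (-0.77, adjusted p = 8.33e-07, limma), whereas its means in LM3 were 59.5 ± 0.835 and 64.3 ± 1.61. The LM3 effect minus the HepG2 effect was 0.88 (adjusted p = 1.41e-07, limma). For the difference of the effects, 27.2% of 8285 genes were called with a more negative and 19.5% with a more positive effect in LM3. With median-of-ratios scaling 52.7% of the calls were more positive in LM3, against 41.7% with the values as deposited.

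Entry of pyruvate into the cycle was covered by 14 genes, of which 10 were tested. In HepG2, 6 were called lower and 3 higher (44.3% and 44.8% of all genes), while LM3 had 6 called lower and 1 called higher (43.5% and 33.9%). The pyruvate dehydrogenase kinase PDK2 fell from 16.4 ± 1.63 to 7.70 ± 0.235 in HepG2 (-0.99, adjusted p = 1.49e-06, limma) and from 16.0 ± 1.77 to 6.11 ± 0.374 in LM3 (-1.25, adjusted p = 3.1e-06). PDK3, another of these kinases, fell from 9.25 ± 0.738 to 4.74 ± 0.188 in HepG2 (-0.84, adjusted p = 2.39e-06, limma). In LM3 its level was 3.18 ± 0.543 under siNC and 0.733 ± 0.108 under siFASRL (-1.27). PDK3 passed the filter in LM3 through the siNC libraries alone, so this difference is given as a description. The LM3 count of lower calls includes PDK3. The LM3 difference of PDK3 was -0.77 under quantile normalization and -1.97 with a pseudocount of 0.1.

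PDK4 differed most between the lines in this list. Its level under siNC was 1.90 ± 0.176 in HepG2 and 41.7 ± 3.01 in LM3, a log2 difference of 3.88 (adjusted p = 1.05e-09, limma). After knockdown it was 2.61 ± 0.194 in HepG2, called higher (0.32, adjusted p = 0.00135, limma; 0.69 under quantile normalization), and 27.1 ± 1.59 in LM3, called lower (-0.60, adjusted p = 6.8e-05), and the difference of the effects was -0.92 (adjusted p = 7.02e-06). MPC1, a subunit of the mitochondrial pyruvate carrier, fell in HepG2 from 27.1 ± 0.289 to 15.5 ± 2.21 (-0.78, adjusted p = 2.99e-05, limma) and was called lower in LM3 too (-0.68, adjusted p = 2.25e-05). PDP1, a phosphatase that activates pyruvate dehydrogenase, rose in HepG2 from 4.37 ± 0.255 to 8.11 ± 0.345 (0.76, adjusted p = 2.25e-06, limma). In LM3 PDP1 was called higher with overlapping groups (0.25, adjusted p = 0.0353, limma; 0.42 under quantile normalization), and the call was lost without any 1 of 5 of the 6 libraries.

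Of 8 genes for carriers, citrate use and the malate-aspartate shuttle, 5 were tested. In HepG2 3 were lower and 1 was higher (44.3% and 44.8% of all genes), while LM3 had 4 called lower and 1 called higher (43.5% and 33.9%). The list medians were -0.59 and -0.52. SLC25A1, the mitochondrial citrate carrier, fell from 83.8 ± 2.53 to 55.5 ± 5.34 in HepG2 (-0.59, adjusted p = 5e-05, limma) and from 116 ± 2.09 to 80.5 ± 1.87 in LM3 (-0.52, adjusted p = 1.8e-05). Within the shuttle, GOT1, the cytosolic aspartate aminotransferase, fell from 37.5 ± 1.61 to 19.7 ± 0.631 in HepG2 (-0.90, adjusted p = 6.42e-07, limma) and from 25.1 ± 2.38 to 13.8 ± 1.15 in LM3 (-0.82, adjusted p = 3.31e-05). GOT2, its mitochondrial counterpart, rose from 106 ± 5.75 to 127 ± 8.37 in HepG2 (0.27, adjusted p = 0.00418, limma), a call lost under quantile normalization with a difference of 0.10, and from 93.2 ± 1.24 to 117 ± 0.263 in LM3 (0.32, adjusted p = 0.000242).

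Genes of iron regulation were followed because of the second role of ACO1, with 7 of 8 listed, 7 tested in HepG2 and 6 in LM3. In HepG2 4 were lower and 2 higher (44.3% and 44.8% of all genes), while LM3 had 4 called lower and 2 called higher (43.5% and 33.9%). TFRC, the transferrin receptor, rose from 161 ± 3.90 to 410 ± 10.1 in HepG2 (1.34, adjusted p = 5.5e-08, limma) and from 55.25 ± 1.60 to 110 ± 4.45 in LM3 (0.98, adjusted p = 1.33e-06). IREB2, the other iron-regulatory protein, fell from 29.6 ± 1.13 to 13.9 ± 0.229 in HepG2 (-1.03, adjusted p = 2.19e-07, limma) and from 20.2 ± 0.696 to 14.75 ± 0.968 in LM3 (-0.43, adjusted p = 0.000206).

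The ferritin chains moved apart. FTH1, the heavy chain, rose from 4116 ± 315 to 6842 ± 818 in HepG2 (0.73, adjusted p = 4.64e-05, limma) and from 5245 ± 316 to 8072 ± 270.5 in LM3 (0.62, adjusted p = 2.28e-05), where the call was lost under quantile normalization with a difference of 0.10. FTL, the light chain, fell from 5899 ± 184 to 3656 ± 96.1 in HepG2 (-0.69, adjusted p = 2.4e-06, limma; -0.26 under quantile normalization) and from 1189 ± 33.2 to 913 ± 17.2 in LM3 (-0.38, adjusted p = 0.000132, limma; -0.63 under quantile normalization). Under siNC, FTL was much lower in LM3 than in HepG2 (-2.31, adjusted p = 3.61e-09, limma).

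For the difference of the effects, where 27.2% of all genes were called more negative and 19.5% more positive in LM3, the call was more negative for 3 and more positive for 1 of 8 citrate cycle enzymes, and for 4 and 1 of 10 genes of pyruvate entry. It was more negative for 1 of 5 carriers. It was more negative for 2 and more positive for 3 of 10 genes around NADPH supply. The same counts were 6 and 1 of 8 genes around 2-oxoglutarate and 3 and 3 of 7 iron genes. These counts take in ALDH1L1, BCAT1 and SLC40A1, which were at or near 0 in every LM3 library, so that their calls restate the HepG2 change. Under siNC, 40.6% of 8176 genes were called lower and 40.4% higher in LM3. Of 10 genes of pyruvate entry 6 were lower and 3 higher, as were 3 and 2 of 5 carriers. The same counts were 3 and 6 of 10 genes around NADPH supply, 5 and 2 of 8 around 2-oxoglutarate and 6 and 1 of 7 iron genes. ALDH1L1, BCAT1 and SLC40A1 are among the lower calls and passed the filter through HepG2 alone. Over all genes, the 3318 lower and 3300 higher calls became 2847 and 3900 under quantile normalization.

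The 5 genes whose log2(value + 1) followed IDH1 most closely over the 12 libraries were ZMYM3 (Pearson r = 0.996), TBC1D2B (0.995), HSPA4L (0.993), PALM (0.991) and LRRC20 (0.991), among 6319 genes with a mean of at least 5. The libraries fall into 4 groups, so r mainly follows 4 group means and is given with no p. ZMYM3 went from 17.8 ± 0.728 to 10.6 ± 0.21 in HepG2 and from 12.1 ± 0.107 to 3.40 ± 0.0643 in LM3. IDH2 had an r of 0.949 with IDH1 and rank 133 of the 6319 genes, MDH1 an r of 0.734, IDH3B of 0.454, CS of 0.295, ACO1 of -0.343 and IDH3A of -0.812.

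Some of these genes share their place in the genome or their sequence with others, and whether the library kit kept strand was not stated. In GENCODE gene spans, which differ from those of RefSeq, IDH1 overlaps IDH1-AS1 on the opposite strand by 935 bases, and MDH1 lies opposite WDPCP over its whole span of 18589 bases. IDH3A overlaps CIB2 and ACSBG1 on the opposite strand and AC090260.1 on the same strand, over 1931 bases. CS overlaps AC073896.1 on the same strand and AC073896.2 on the opposite strand, and the deposited tables give CS on the plus strand where RefSeq has the minus strand. Without strand, reads of a gene and of its antisense partner cannot be told apart, and strand does not separate genes on the same strand. RefSeq names 1 pseudogene after IDH1, 3 after CS and 2 after MDH1, and how reads shared with them were assigned was not stated, so the levels of these genes carry that uncertainty.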

How the data were processed

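Poly(A)-selected RNA of HepG2 and LM3 cells was sequenced on a BGISEQ-500. Per the sources, the authors filtered reads with SOAPnuke 1.5.2, aligned with HISAT2 2.0.4 and Bowtie2 2.2.5 and estimated levels with RSEM 1.2.12. The deposited tables hold normalized RSEM values, not counts. The submitters' notes name hg19, whereas the tables' chromosome accessions are those of GRCh38. In 1 table, 6 further columns of per-sample values repeat LM3 values and were not used, and 17 symbols turned into dates were restored by gene ID. Columns of the authors' own comparisons were not used.

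Levels were compared with limma 3.58.1 (R 4.3.3; lmFit, eBayes) on log2(value + 1). Genes entered a fit with 1 or more in no fewer than 3 of its libraries, with Benjamini-Hochberg adjustment over all genes tested. Genes were called at an adjusted p under 0.05, and a second rule also asked for an absolute log2 difference of at least 1. Fits used the 6 libraries of a line, the 6 siNC libraries or, for the difference of effects, all 12. The fits were tested on simulated data. Members and lists were chosen with earlier results of these data known. Named were the 9 members, per list and comparison at most 3 called genes a direction with the largest differences, and the 5 genes most correlated with IDH1. Pseudocount, filter, scaling, trend, joint fit, replicate block and leaving out each library were varied. Promoters are RefSeq GRCh38.p14. Python 3.11.15 was used for the remaining values.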

Additional observations from a re-analysis of the deposited data

Results flagged for a closer look

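ACO1 was higher in every HepG2 siFASRL library and lower in every LM3 siFASRL library than under siNC. The LM3 effect minus the HepG2 effect was -0.43 on the log2 scale, and this difference was not tested. The ratio of IDH1 to IDH2 was likewise higher in every HepG2 siFASRL library (mean 2.50 against 2.11) and lower in every LM3 siFASRL library (3.57 against 4.29). Both changes leaned on single libraries, as the siNC mean was 2.25 in HepG2 without replicate 2 and 3.95 in LM3 without replicate 1. The change of the mean ratio in LM3 minus that in HepG2 was -1.10, and it was not tested either.

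Several genes of the pathway lists whose effects differed between the lines (interaction of line and siRNA, limma, adjusted p under 0.05 over 8285 genes, where 27.2% had a more negative and 19.5% a more positive effect in LM3) are given as the LM3 effect minus the HepG2 effect on the log2 scale. Among citrate cycle enzymes the difference was -0.36 for OGDH, -0.32 for SUCLG2, -0.43 for SDHB and 0.28 for SDHD. For the entry of pyruvate it was -0.58 for PC, -0.43 for PDK3, -0.92 for PDK4, -0.52 for PDP1 and 0.36 for PDPR, and among carriers -0.24 for SLC25A13. Among genes around NADPH supply it was -0.54 for ME1, -0.28 for ME2, 1.22 for ALDH1L1 and 0.61 for NADK2. Around 2-oxoglutarate it was 0.88 for GLUD1, -0.59 for GPT, -0.67 for GPT2, -0.52 for PSAT1, -0.32 for OAT and -0.24 for BCAT1. In iron regulation it was 0.60 for IREB2, -0.36 for TFRC, 0.31 for FTL, -0.25 for SLC11A2, 0.50 for SLC40A1 and -0.29 for FBXL5. ALDH1L1 was listed at 0 in every LM3 library, BCAT1 had LM3 means of 0.09 and 0.08 and SLC40A1 of 0.01 and 0, so that a change was measurable in HepG2 alone. Several of these calls were lost under an alternative. Under quantile normalization the difference of PC kept its call at -0.35, and it was -0.0066 for PDK3, -0.18 for GPT2, -0.19 for OAT, -0.17 for BCAT1, -0.04 for SLC11A2 and -0.10 for FBXL5, and that of FTL turned to -0.37. With median-of-ratios scaling it was -0.17 for SLC25A13 and -0.21 for ME2, and with a pseudocount of 0.1 it was -0.41 for GPT and -0.28 for BCAT1. The ME2 call was also lost without HepG2 siFASRL replicate 2 (-0.25). The SDHD call was lost without HepG2 siFASRL replicate 1 (0.22), HepG2 siNC replicate 1 (0.27), LM3 siFASRL replicate 2 (0.27) or LM3 siFASRL replicate 3 (0.25).

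Among the cell type markers the same difference was 1.45 for ALB, 0.94 for AFP, 1.73 for APOA1, 0.80 for APOB, 1.33 for TTR, 1.62 for TF, 0.44 for FOXA2, 0.61 for EPCAM, -0.44 for KRT18, 1.47 for CDH1, -1.10 for COL1A1, 1.51 for COL3A1 and 1.41 for LUM. The marker differences were not recomputed under the alternatives. Of these, EPCAM, KRT18 and COL1A1 passed the filter in LM3, and the others were too low there for a fall to be seen.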

How the results depend on the processing

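Leaving out each library in turn gave 6694 to 7140 genes called at an adjusted p under 0.05 for HepG2 siFASRL minus siNC, 5269 to 5940 for LM3 siFASRL minus siNC, 3398 to 4049 for the difference of the effects and 5592 to 6610 for LM3 siNC minus HepG2 siNC. With an absolute log2 difference of at least 1 in addition, these ranges were 766 to 871, 485 to 577, 367 to 408 and 1339 to 1863. That second rule was more sensitive: a pseudocount of 0.1 gave 1373 calls in HepG2, 900 in LM3 and 664 for the difference of the effects, and quantile normalization gave 327 in LM3. A smaller pseudocount raises the log2 differences of low values by construction. The cause of the quantile count was not tested.

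The IDH1 difference ranged without single libraries from -0.86 to -0.78 in HepG2, from -2.03 to -1.92 in LM3, from -1.22 to -1.11 for the difference of the effects and from -0.67 to -0.57 between the lines under siNC. Quantile normalization gave -0.96 in HepG2 and -0.98 for the difference of the effects, and median-of-ratios scaling gave -1.88 in LM3. The cause was not tested.

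Apart from list genes not called under either setting, signs turned in 4 results. The IDH3B difference in HepG2 was -0.10 under quantile normalization. The difference of the IDH3A effects, near 0 at -0.02, was 0.0027 under quantile normalization and 0.0511 under median-of-ratios scaling, and ranged from -0.0706 to 0.0143 without single libraries, turning sign without HepG2 siFASRL replicate 2 (0.00062) or 3 (0.0120), HepG2 siNC replicate 2 (0.0143) or LM3 siFASRL replicate 2 (0.0060). Under quantile normalization the difference of the FTL effects was -0.37, and that of OGDHL between the lines under siNC, -0.07 with the values as deposited, was 0.63. The cause was not tested. Of 110 differences of list genes that met the naming rule, 94 had the same direction and side of the threshold under all alternatives run.

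Whether replicate numbers pair the libraries was left undecided, since libraries with different numbers were not compared. Same-numbered deviations from the group means correlated at 0.378, 0.436 and -0.260 in HepG2, at -0.0934, 0.130 and -0.205 in LM3 and at 0.545, 0.648 and -0.361 between the siNC groups. With the replicate block, 7356 genes were called in HepG2, 5691 in LM3, 3735 for the difference of the effects and 6829 between the lines. The IDH1 differences of -0.81, -1.98, -1.17 and -0.62 cannot move under this block, since every group holds the same replicate numbers. Nothing is read from their staying the same. Depth is unknown, so the precision of low values such as IDH2 in LM3 cannot be bounded by counting error.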
